A study of Homo sapiens with 2 samples.

Results

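The regions described here are the longer terminal exons of 6 to 20 windows in transcripts of GM12878, a human lymphoblastoid B cell line. N6-methyladenosine (m6A) was mapped by sequencing RNA fragments pulled down with an m6A antibody (the IP library) beside unselected fragments (the Input library). The m6A IP group and the Input group each held 1 library of fragmented total RNA from untreated cells of this line, grown in RPMI medium with 15% serum, and no other genotype, treatment or time was compared. The source field of the labels gives embryonic stem cells of mouse, in conflict with the human organism and the GM12878 line given elsewhere in them. Of the B cell markers 10 of 10 were measured in the input, against 0 of 10 pluripotent stem cell markers, 3 of 8 T cell markers and 1 of 6 myeloid markers.

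The deposited table cuts each exon into windows, numbered along the exon. Windows were about 100 nt wide and began about every 50 nt, as estimated from the way isolated reads spread over them, so distances below are approximate. A gene entered if its kept listing had 3 or more exons and a mean scaled input coverage of 1 or more. Of its exon 1 and its highest-numbered exon, the one with more windows was taken, and it became a member if it held 6 to 20 windows. This gave 3438 exons with 42303 windows, of 9008 such genes with 659752 windows and of 3335372 windows in the whole table. In 195 of the 9008 genes both terminal exons were equally long and neither was taken. Members were chosen by exon number, exon length and the gene's input coverage, which was the only measured value in the rule. No low-value filter was applied within the members, and all 3438 are counted below. Among them, 126 gene names carried the same coverage as another member and shared 60 distinct coverages. With each shared coverage counted once, there were 3372 distinct coverages. Of the members, 12 were unnamed assembled loci.

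m6A is placed on nascent RNA by a complex built around METTL3 and METTL14, which recognises adenosines in a short consensus. In mammalian messenger RNA the mark is known to gather near stop codons, in 3′ untranslated regions and in long internal exons. The last exon of a gene usually carries the stop codon and the 3′ untranslated region, so it is the part of the transcript for which m6A is best known. Reader proteins of the YTH family bind the mark and act on translation and decay of the RNA.

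The m6A IP library corresponded to 56.9 M reads and the Input library to 50.3 M reads over the kept listings. A read lying wholly within a window added a scaled coverage of 0.0996 in the IP and 0.0634 in the input. With 1 library per group there was no replicate, so no SD or p-value is given. The 95% intervals over exons or windows are exact binomial (Clopper-Pearson), and intervals of differences are Newcombe's. They cover counting error only, since reads may be copies of a single molecule and neighbouring windows overlap. Both libraries were made from bulk RNA, so more cells with a methylated transcript and more methylation per cell cannot be told apart.

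Enrichment was read from the deposited window score, the log2 ratio of a window's IP coverage over the gene's median IP coverage to the same ratio in the input. Windows that reached a score of 2 (4-fold) count as enriched, and a region was a run of 2 or more consecutive enriched windows. The exon score is the highest mean score of 2 consecutive windows in the exon.

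A region was present in 781 of the 3438 longer terminal exons (22.7%, 95% interval 21.3 to 24.2), against 16.5% of all 11611 exons of 6 to 20 windows at any place in these genes, members included. These shares are not matched for length, on which the share depends: members had a median of 12 windows and internal exons of 7. Weighted to the lengths of the members, internal exons held a region in 42.3%, more often than members. Enriched windows numbered 3678 (8.69%, 8.43 to 8.97), where 5.6% of all windows in genes of 3 or more exons and adequate input were enriched, and 2.64% of windows over all genes. Only 49 member windows (0.116%) had a score of -2 or less, against 0.246% of all windows in these genes. Enriched windows therefore outnumbered depleted ones 75.1 times. The members made up 6.41% of the windows of these genes but held 14.3% of their IP coverage and 12.6% of their input coverage. The median exon had a mean coverage of 8.71 in the IP (interquartile range 3.13 to 22.1) and 4.81 in the input (2.22 to 11.1). Exon scores ran between -1.46 and 6.96, with a median of 1.04 and an interquartile range of 0.55 to 1.95.

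Where a region was present it was usually single and short. Of the 781 exons, 730 held 1 region, 49 held 2 and 2 held 3. The longest run of enriched windows had a median of 4 windows (interquartile range 3 to 5) and a maximum of 15. Only 15 exons had 80% or more of their windows enriched. At the highest window of these exons the median score was 3.0 (2.56 to 3.68), with a median coverage of 64.9 in the IP and 5.75 in the input. A median of 30% of the windows in such an exon were enriched. The shape was thus a local peak within the exon in most cases, not an exon enriched along its length.

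The 12 exons with the highest exon scores were those of DDX23, PLEKHO1, SIL1, AMICA1, ICAM2, PIK3CA, MCM3, TGFBRAP1, ZNF827, PCNXL3, DERL2 and CUL1, with scores between 5.38 and 6.96. DDX23 encodes a DEAD box helicase of the spliceosome. Its exon 1, of 19 windows, had IP coverage of 1.87 at the inner edge, the side that joins the rest of the transcript, 143 at 300 nt, 1826 at 600 nt and 5.62 at 900 nt. Input coverage at the same places was 1.18, 38.2, 14.3 and 1.68. The IP signal climbed to a single summit while the input had already passed its own maximum of 50.02, at 150 nt. At the summit there were about 18335 IP reads and 225 input reads (exact Poisson interval 197 to 256), a ratio of scaled coverage of 128 (112 to 147). The exon score was 6.96, and the best score in any other exon of DDX23 was 1.04.

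PLEKHO1 encodes a membrane-binding adaptor with a pleckstrin homology domain. Its highest-numbered exon had an IP coverage of 33.1 at the inner edge, 4527 at 600 nt and 24.2 at the outer end, against 22.9, 38.2 and 2.67 in the input. The ratio at the summit was 119 (109 to 129), and the best other exon scored 0.44. SIL1 encodes a nucleotide exchange factor for the chaperone BiP in the endoplasmic reticulum. Its summit lay at 450 nt, with an IP coverage of 191 and an input coverage of 3.31, while the windows from 600 nt outward were below 1 in both libraries. AMICA1 (now JAML) encodes an adhesion molecule of leukocytes. Its IP coverage was 219 at 350 nt and 0.565 at 500 nt, against 2.79 and 0.111 in the input, so the region ended where the input also fell away.

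ICAM2, a ligand of the lymphocyte integrin LFA-1, had a short exon of 7 windows. Its IP coverage was 0.937 at the inner edge, 58.3 at 200 nt and 721 in the last window at 300 nt, against 0.269, 6.66 and 9.80 in the input. Here the highest window was the outermost, so the listing ended on the summit. The exon of TGFBRAP1, which encodes a protein that binds TGF-beta receptors, had a similar shape, with IP coverage of 617 at 400 nt and 451 at 450 nt, against 10.6 and 8.53 in the input. ZNF827, a zinc finger gene, also had its highest score in its outermost window, at 850 nt, with an IP of 332 over an input of 2.88. Its highest IP coverage, 644, was in another window, farther in.

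PIK3CA encodes the catalytic alpha subunit of phosphatidylinositol 3-kinase. Its last exon had IP coverage between 81.3 and 130 over the windows at 150 to 350 nt, against 1.44 to 2.82 in the input, a broad plateau at low input. The ratio at the highest-scoring window rested on 28 input reads (18.6 to 40.5) and was 63.2 (43.8 to 96.1). MCM3 encodes a subunit of the replicative helicase. It had IP coverage of 2.34 at the inner edge, 1527 at 500 nt and 65.5 at the outer end, against 2.48, 45.0 and 49.6 in the input. Both ends of the MCM3 exon were covered about equally in the 2 libraries, and the IP stood out in the middle.

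PCNXL3 (now PCNX3), a membrane protein gene of the pecanex family, differed from the others in that 13 of its 14 windows were enriched. The IP coverage was 76.2 at the inner edge, 1289 at 300 nt and 0.713 at the outer end, against 18.1, 27.0 and 0.0223 in the input. DERL2, a derlin of endoplasmic reticulum-associated degradation, had a summit of 975 in the IP against 7.60 in the input at 200 nt, a ratio of 128 (107 to 155). CUL1, the scaffold of SCF ubiquitin ligases, had 750 against 22.5 at 200 nt. Another exon of the gene also held a region for PIK3CA, TGFBRAP1, PCNXL3 and CUL1, and 2 others did for ZNF827, whereas no other exon did for the remaining genes of the 12. In PCNXL3 the best other exon scored 4.96, close to the terminal exon's 5.46.

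**Figure D1:**
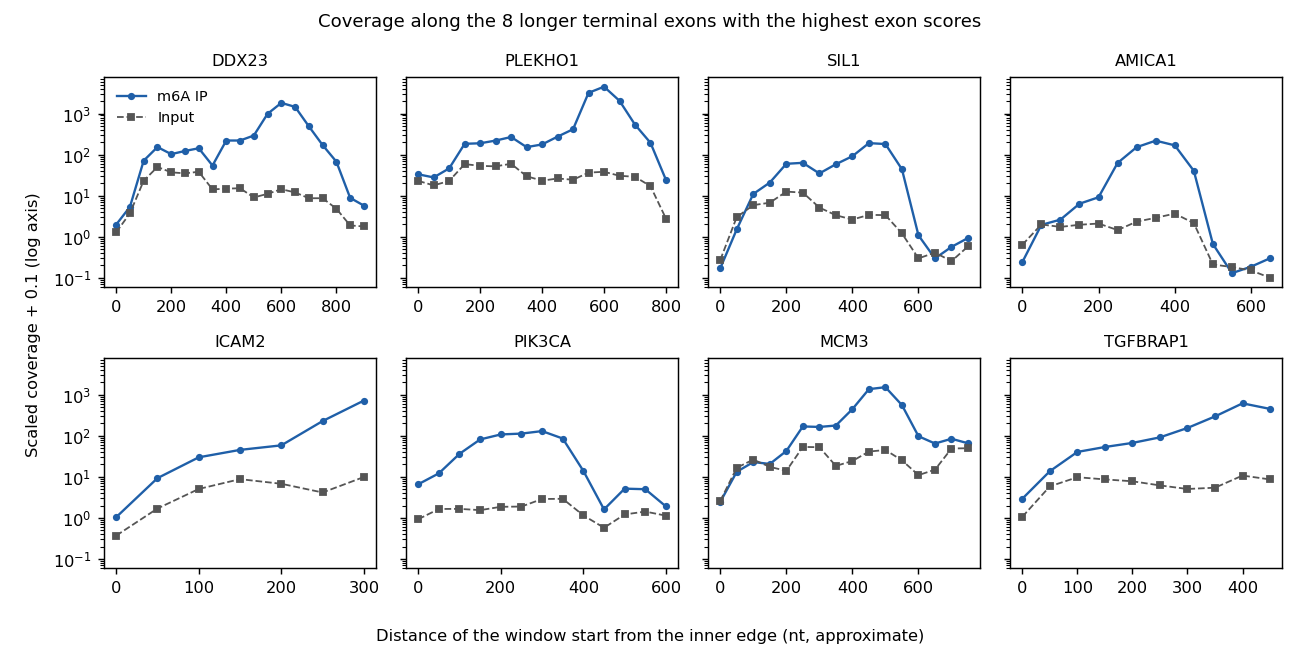
Scaled coverage plus 0.1 on a log axis against the approximate distance of the window start from the inner edge in nt, for the m6A IP library (blue circles) and the Input library (grey squares, dashed) in the 8 longer terminal exons with the highest exon scores. In DDX23, PLEKHO1, SIL1, AMICA1, PIK3CA and MCM3 the IP rises to a summit inside the exon and falls again, while in ICAM2 and TGFBRAP1 it is highest at or next to the outer end.

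At the other end of the range, 4 exons with a mean input of 10 or more had the lowest scores: LSM7 at -1.12, POLR2J3 at -0.52, SCAF1 at -0.43 and CCDC12 at -0.37. LSM7 encodes a subunit of the Lsm ring that binds U6 snRNA and takes part in mRNA decay. Its IP coverage was 0.213 at the inner edge, 82.4 at 150 nt and 25.6 at the outer end, against 0.421, 72.7 and 30.3 in the input, so the 2 libraries followed each other along the exon. The score is relative to the gene's medians, which were an IP coverage of 25.2 and an input coverage of 9.72. Without this centring the scores of LSM7, SCAF1 and CCDC12 were above 0, at 0.17, 1.25 and 0.28. POLR2J3 is a near-identical copy of other genes of the same RNA polymerase II subunit, which the authors' counting could split, and its value is uncertain. SCAF1, an SR-related splicing factor gene, had a region in another exon, where its best score was 2.49.

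The 3 exons with the highest input were those of ACTB, GAPDH and CD74. ACTB, which encodes beta-actin, had IP coverage of 323 at the inner edge, 40253 at 150 nt and 1888 at the outer end, against 296, 8225 and 1433 in the input. Its exon score was 2.18, from 2 enriched windows at 200 and 250 nt. GAPDH, the glycolytic dehydrogenase, had no region: at its highest-scoring window the IP coverage was 1904 and the input coverage 1581, a ratio of 1.204 (1.18 to 1.23). CD74, which chaperones MHC class II, had 4369 against 1451 at 450 nt, a ratio of 3.01 (2.96 to 3.06) and an exon score of 1.01. Depth was ample in all of these exons, and their scores lay on both sides of 2.

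The exon numbers of the table follow the chromosome, not the transcript. This was seen by matching gene symbols to RefSeq, which gave a strand for 2621 of the members. On the plus strand 1172 of 1346 members were the highest-numbered exon, and on the minus strand 1090 of 1275 were exon 1. The members thus divided into 2262 exons at the 3′ end of the gene, 359 at the 5′ end and 817 without a matched strand. The 3′ end held 87.1% of the plus-strand and 85.5% of the minus-strand members. Over longer terminal exons of any length it held 92.7% and 92.4%. The direction of the numbering was read from these same counts, so the shares are no separate evidence for it.

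Regions were more frequent at the 3′ end. A region was present in 564 of 2262 3′ exons (24.9%, 23.2 to 26.8) and in 38 of 359 5′ exons (10.6%, 7.60 to 14.2), a difference of 14.3 percentage points (10.3 to 17.7). Input moved with this split, with a median of 5.73 in 3′ exons and 2.44 in 5′ exons, and so did length, with a median of 12 against 10 windows. Within 6 to 10 windows the shares were 12.3% and 4.19%, a difference of 8.12 points (3.74 to 11.3). Within 11 to 15 windows they were 27.9% and 12.1%, a difference of 15.9 points (8.08 to 21.6). In these 2 classes the 3′ exons were thus ahead by more than counting error. Within 16 to 20 windows they were 36.7% (663 exons) and 30.8% (52 exons), and the difference of 5.88 points had an interval of -8.08 to 17.4, which includes 0. Among exons with a mean input of 5 or more the shares were 24.2% and 10.9%, a difference of 13.3 points (4.97 to 18.7). With both limits together, an input of 5 or more and 11 to 20 windows, 32.3% of 750 against 23.7% of 38 exons held a region, and the difference of 8.58 points (-7.28 to 19.8) was not detectable with so few 5′ exons.

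The 2 sides of the listing did not differ beyond counting error: exon 1 had a region in 22.9% of 1669 exons and the highest-numbered exon in 22.6% of 1769, a difference of 0.33 points (-2.47 to 3.14).

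The 4 highest 5′ exons, chosen after their values were seen, were those of GBA2, PEX6, ZFYVE19 and ATP5J. GBA2 encodes the non-lysosomal glucosylceramidase. It had IP coverage of 19.7 at the inner edge, 201 at 200 nt and 0.035 at the outer end, against 6.44, 6.53 and 0.0411 in the input, and an exon score of 4.80. PEX6, an ATPase of peroxisome import, had 130 in the IP and 5.41 in the input at 350 nt and a score of 4.41. ZFYVE19, a FYVE domain protein gene, had 66.5 against 1.40 at 250 nt and a score of 4.30, with 22 input reads at that window. ATP5J (now ATP5PF), coupling factor 6 of ATP synthase, had 55.6 against 1.31 at 250 nt and a score of 4.06, with 21 input reads. These highest-scoring windows lay 200 to 350 nt inside the exon, as in many 3′ exons. Whether coverage was counted by strand is not given in the sources used here, so signal from an overlapping gene cannot be told apart from that of the named gene.

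The share of exons with a region grew with length. It was 6.19% at 6 windows (226 exons), 17.3% at 10 windows, 35.9% at 15 windows and 39.0% at 20 windows (154 exons). In length classes it was 11.1% (9.52 to 12.9) for 6 to 10 windows, 25.9% (23.4 to 28.5) for 11 to 15 and 36.0% (32.8 to 39.2) for 16 to 20. Peaks in longer exons were also slightly higher. The median score at the highest window of 3′ exons with a region was 2.78, 3.10 and 3.16 in the 3 classes. Input did not rise with length, with medians of 5.30, 4.63 and 4.49. A longer exon holds more windows, and so more places for a region and for a high maximum. The part of this in the rise of the share and of the peak score was not tested.

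Internal exons of the same length served as the nearest comparison: 4540 exons of 6 to 20 windows in 2988 genes, chosen with the same minimum input. Longer terminal exons held a region more often than internal exons at 6 windows and less often at each length from 7 to 20 windows, with intervals that overlap at 7, 8 and 9 windows. The shares were 6.19% (3.43 to 10.2) and 2.20% (1.57 to 2.99) at 6 windows, 6.99% and 8.41% at 7 windows, 17.3% and 30.6% at 10 windows, and 39.0% and 87.2% at 20 windows. At 11 to 15 windows they held a region less often, 25.9% against 50.6%, a difference of -24.8 points (-29.1 to -20.3). At 16 to 20 windows the shares were 36.0% and 68.6%, a difference of -32.7 points (-38.3 to -26.6). The intervals of these 2 differences overlap. At 6 to 10 windows the pooled shares ran the other way, 11.1% against 9.0%, a difference of 2.14 points (0.29 to 4.15). There 226 of 1355 longer terminal exons but 1776 of 3489 internal exons had only 6 windows, and with internal exons weighted to the lengths of the members the difference was -4.77 points (-7.13 to -2.41). Weighted in the same way over 6 to 20 windows, the internal share was 42.3% and the difference -19.6 points (-22.0 to -17.2), both with intervals from the normal approximation.

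Peaks in long internal exons were also higher. Among exons of 11 to 20 windows with a region, the median score at the highest window was 3.06 in longer terminal exons and 3.46 in internal exons. The median IP coverage there was 67.7 and 70.5, and the median input coverage 5.81 and 4.38. The longest run had a median of 4 and 5 windows. All exons of 11 to 20 windows had median input of 4.55 in longer terminal and 3.98 in internal exons.

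**Figure D2:**
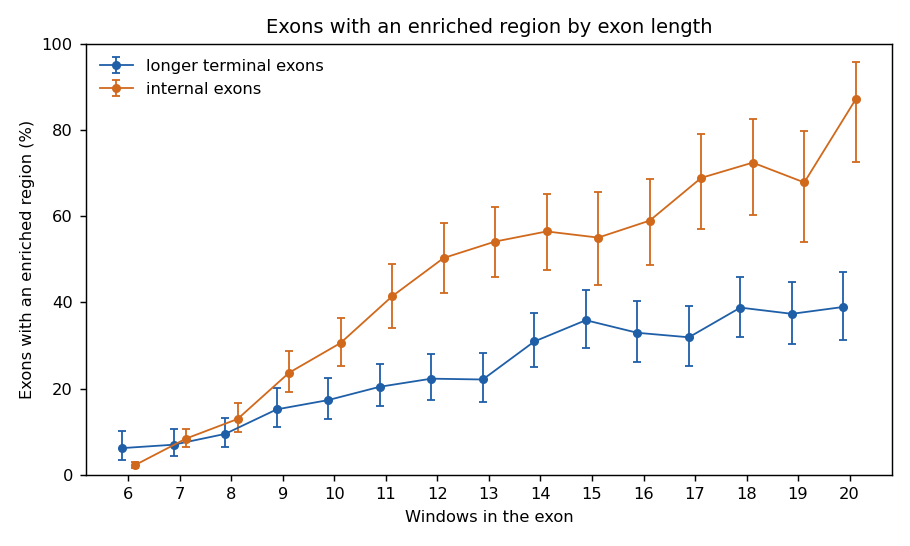
Share of exons with an enriched region in percent against the number of windows in the exon, for longer terminal exons (blue) and internal exons (orange), with bars for exact 95% binomial intervals. Terminal exons rise to 39.0% at 20 windows and internal exons to 87.2%, and at 6 windows the order is the opposite, 6.19% and 2.20%.

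Some genes hold both kinds of exon. In 206 genes with a longer terminal exon and an internal exon of 11 to 20 windows, 68 terminal exons held a region (33.0%) and 108 genes had one in an internal exon (52.4%). Both held one in 34 genes, the terminal exon alone in 34 and the internal exon alone in 74. In 327 genes where both were of 6 to 10 windows, 48 terminal exons held a region (14.7%) and 31 genes had one in an internal exon (9.48%). A gene could have several internal exons of that length, any of them counted, and lengths within a class were not matched.

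Within its own gene the longer terminal exon was often where the signal was strongest. It held the highest pair of windows in 1970 of 3438 genes (57.3%, 55.6 to 59.0) and covered a median of 29.3% of the transcript's windows. Because pairs were taken within exons, the share of windows is not an expected share for this count. The share holding the highest pair was 59.8% for 3′ exons and 43.7% for 5′ exons. Among exons with a region it was 93.7% (91.8 to 95.3). That value follows largely from choosing exons by the same score, so nothing is concluded from it. The terminal exon was the only exon with a region in 686 genes, shared that with another exon in 95, and had none while another exon did in 335. In the remaining 2322 genes no exon held a region. Sorted into 4 equal groups by how much of the transcript they covered, members held a region in 20.8%, 22.3%, 25.7% and 22% of exons, low to high.

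Enriched windows were not spread evenly along the exon. In 3′ exons 0.928% of windows at the inner edge were enriched (0.576 to 1.42), 5.84% at 100 nt, 13.4% at 200 nt and 15.0% at 300 nt (13.5 to 16.6). The share was 10.8% at 500 nt, 5.67% at 700 nt and 1.23% at 900 nt, and 0 of 108 windows at 950 nt were enriched, which allows a share of up to 3.36%. Windows at 950 nt were all the outermost of exons of 20 windows, with median coverage of 0.567 in the IP and 0.531 in the input. The part of low coverage in this fall was not tested. Coverage moved with distance too. Median IP coverage was 3.21 at the inner edge, 11.4 at 150 nt, 9.27 at 300 nt and 2.99 at 700 nt. Median input coverage was 3.03, 6.91, 4.61 and 2.35 at the same places, with its highest value, 7.46, at 100 nt. The ratio of the IP median to the input median was highest at 250 and 300 nt, farther in than the place where the input itself was highest. Among 3′ windows with an input of 2 or more the share was highest at 350 nt, at 18.9%, against 15.0% at 300 nt with all windows.

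In 5′ exons the profile from the inner edge was low. The share was 3.34% at the inner edge (1.74 to 5.77), reached 6.69% at 250 nt (4.33 to 9.78) and was 5.36% at 500 nt. At 700 nt 0 of 72 windows were enriched. Median input was 1.74 at the inner edge and 1.05 at 250 nt, lower than in 3′ exons at every distance up to 800 nt. At the inner edge the 5′ share was above the 3′ share and their intervals do not overlap, and from 150 to 450 nt it was below with intervals apart. The role of the low 5′ input in this was not tested. Counted from the outer end instead, the 5′ share rose from 0.836% in the outermost window (0.173 to 2.42) to 14.3% at 600 nt (8.39 to 22.2). Only 112 5′ exons were long enough to reach 600 nt, and the 3′ share there was 13.1% (11.2 to 15.2).

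**Figure D3:**
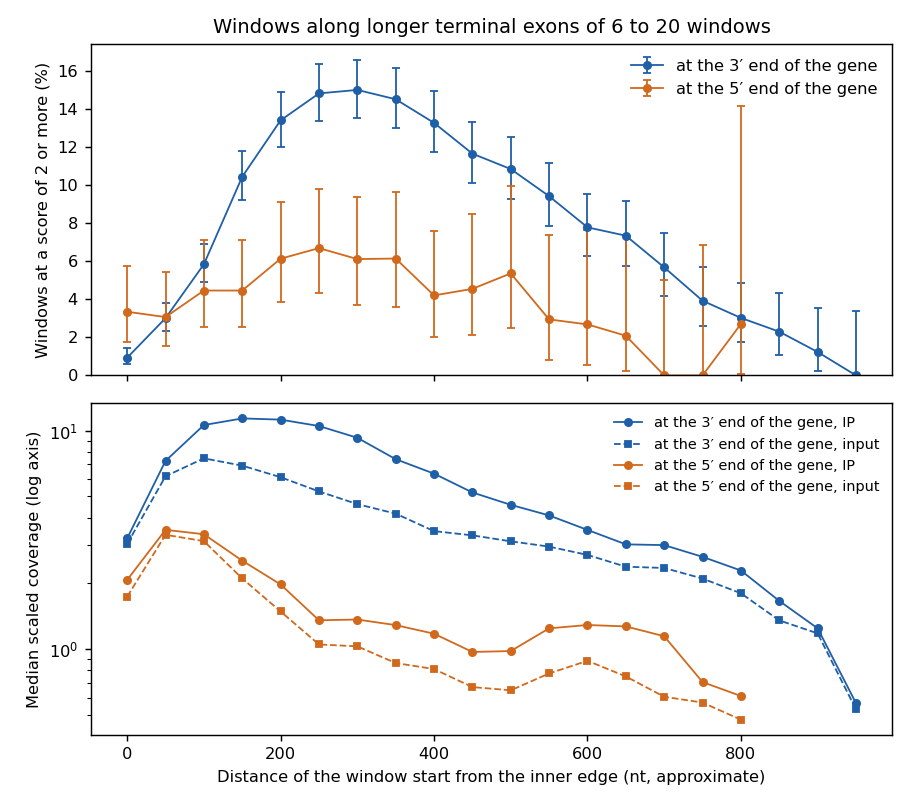
Upper panel, percent of windows at a score of 2 or more with exact 95% intervals. Lower panel, median scaled coverage on a log axis in the IP (circles) and the input (squares, dashed). Both are plotted against the approximate distance from the inner edge, for exons at the 3′ end (blue) and at the 5′ end (orange). The 3′ exons peak at 15.0% at 300 nt, and the 5′ exons stay at or below 6.69%.

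The profile was seen from both sides of the table. In exon 1 the share was highest at 350 nt, at 15.4%, and in highest-numbered exons at 250 nt, at 14.0%. The last-numbered window of each exon is cut short: its median input was 0.985 where it is the inner edge (exon 1) and 0.245 where it is the outer end (highest-numbered exon). The part of these short windows in the different peak positions was not tested. In the exons with a region, the highest window began a median of 300 nt from the inner edge (200 to 400).

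The profile was lower in short exons. Regions in 3′ exons of 6 to 10 windows had their highest window at a median of 250 nt, those of 11 to 15 windows at 300 nt and those of 16 to 20 windows at 350 nt, positions that the length of the exon itself bounds. The share of windows enriched at 250 nt was 8.58% in the shortest class, against 17.2% and 19.5% in the longer ones. Terminal exons of 21 to 40 windows, just above the length limit, were compared over the same distance. At 200 to 350 nt from the inner edge 13.2% of member windows were enriched (12.6 to 13.8), against 21.7% in the exons of 21 to 40 windows (20.8 to 22.5), a difference of -8.51 points. Median input there was almost equal, 4.13 and 4.14. With 3′ exons alone the shares were 14.4% (13.7 to 15.2) and 22.4% (21.5 to 23.4), and with 3′ members of 11 to 20 windows 17.4% (16.5 to 18.4). At the same distance from the inner edge, windows were therefore enriched less often in members than in exons of 21 to 40 windows, and the intervals do not overlap. Over whole exons 22.7% of members against 44.2% of exons of 21 to 40 windows held a region.

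**Figure D4:**
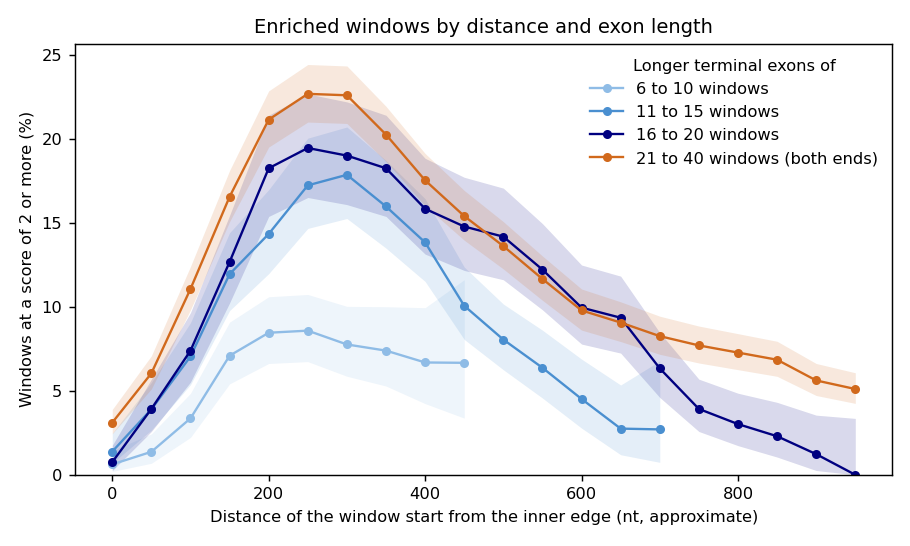
Percent of windows at a score of 2 or more against the approximate distance from the inner edge, in 3′ members of 6 to 10, 11 to 15 and 16 to 20 windows (light to dark blue) and in longer terminal exons of 21 to 40 windows at both ends (orange), with bands for exact 95% intervals. Within 200 to 350 nt the order follows exon length, from the shortest class at the bottom to the exons of 21 to 40 windows at the top, although the bands of neighbouring classes above 10 windows overlap.

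The share with a region did not rise steadily with the level of the transcript. In 4 equal groups by the mean input of the exon, low to high, 15.5%, 27.0%, 29.5% and 19.0% of members held a region, at median inputs of 1.43, 3.38, 7.10 and 19.8. The lowest and the highest group were both below the middle ones, and their intervals do not overlap those of the middle groups. Few reads support a window in the lowest group, and the part of depth in this was not tested.

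Annotated gene class was available for most members through RefSeq symbols, 3209 of 3438. Protein-coding genes held a region in 711 of 3079 exons (23.1%), long non-coding RNAs in 5 of 44 (11.4%, 3.79 to 24.6) and transcribed pseudogenes in 13 of 65 (20%, 11.1 to 31.8). The intervals of the small classes include the protein-coding share.

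Shares with a region ranged widely between gene lists, but each list had at most 45 members and no interval was computed. The counts are given beside 22.7% of all members with a region and a median exon score of 1.04. Several lists lay near that share, such as NF-kB signalling (21.4%), the actin and tubulin cytoskeleton (25%) and small GTPases (26.7%). Among DEAD and DEAH box helicases, enzymes that remodel RNA, 13 of 26 exons held a region and the median exon score was 1.97. After DDX23, the highest was DHX36, a helicase of RNA quadruplexes, with IP coverage of 239 and input coverage of 7.73 at 150 nt and an exon score of 5.11. Among the zinc finger genes 11 of 26 exons held a region, with a median score of 1.73. ZNF496 had 12 enriched windows of 20 and a score of 4.51. Its highest-scoring window had IP coverage of 122.9 against 2.85 in the input, and the highest IP coverage in the exon was 282. The same list also held the lowest exon score of all members, -1.46 in ZNF646.

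Of the solute carriers, which move metabolites across membranes, 15 of 35 exons held a region and the median score was 1.85. SLC43A1, an amino acid transporter, had 90.3 in the IP against 4.06 in the input at 250 nt, and SLC25A28, a mitochondrial iron importer, 237 against 11.96 at 300 nt. Their exon scores were 4.01 and 3.36. In Mediator, the coactivator complex of RNA polymerase II, 5 of 10 exons held a region, with a median of 2.12. MED28 scored 3.06 and MED11 2.85, and the lowest Mediator exon scored 0.69.

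The immediate early and short-lived genes had 5 members, of which 4 held a region, with a median of 2.94. KLF2, a transcription factor of lymphocyte quiescence, scored 4.75, GADD45A 3.12, GADD45B 2.94 and DUSP2 2.80. PPP1R15A, which directs dephosphorylation of eIF2, scored 0.50. These 5 are named after their values were seen.

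The B cell genes had a region in 5 of 15 exons, with a median score of 1.86 and a high median input of 27.5. CD40, the costimulatory receptor that drives NF-kB, had IP coverage of 298 and input coverage of 30.2 at 250 nt, a ratio of 9.85 (8.93 to 10.9) and an exon score of 3.22. BLK, a B cell kinase of the Src family, scored 2.91, and another exon of the gene also held a region. The antigen receptor subunit CD79A scored 0.23, the lowest of the list. Among NF-kB genes, CD40 included, 3 of 14 held a region. TRAF2, an adaptor of TNF receptors, scored 2.57. In antigen presentation only HLA-DQB1, at 2.19, held a region among 18 exons, and HLA-DRB1 scored 1.49. HLA genes have near-identical copies and many alleles, so their coverage is uncertain.

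The DNA replication and cell cycle list had a region in 11 of 42 exons (26.2%), near the 22.7% of all members. Its median score was 0.79, below the 1.04 of all members. MCM2, a helicase subunit like MCM3, had 330 in the IP against 11.6 in the input at 200 nt and a score of 5.11. Chromatin regulators had a similar spread, with 8 of 26 exons and a median of 0.89. ARID3A, a DNA-binding regulator of B cell genes, scored 4.41, and CHD8, a chromatin remodeller, 3.96. In CHD8 9 consecutive windows were enriched and the best other exon scored 4.64.

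Several lists of abundant housekeeping transcripts held few regions. The list of SR and hnRNP splicing factors also held many core spliceosome genes, such as SF3B1, SNRPB and PRPF8. In this mixed list 1 of 29 exons held a region and the median score was 0.63. That exon belonged to SRSF5, a splicing regulator, with 697 in the IP against 54.4 in the input at 250 nt and a score of 3.03. The next in the list, PRPF31, scored 1.66. Glycolysis had 0 of 12, with PFKL highest at 1.46 and PKM counted also under its older name PKM2. The respiratory chain had 3 of 28 and a median of 0.63, and its 2 highest, ATP5J and NDUFC1, were both exons at the 5′ end of the gene. NDUFC1 scored 3.91, on 17 input reads at its highest window.

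Of the cytosolic ribosomal proteins 1 of 20 exons held a region, that of RPL29, with a score of 2.73. RPL31 had a score of 2.05 from a pair of windows of which only 1 was enriched. Ribosomal protein genes have many processed copies, so reads may be split between them. Mitochondrial ribosomal proteins had 8 of 45 and a median of 0.89, led by MRPS26 at 3.55 and MRPS34 at 3.004. In the proteasome 2 of 26 held a region. PSMD13 scored 2.69. PSMA2, at 2.19, had no run of 2 enriched windows, and its highest window held 50 IP reads and 10 input reads.

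The list of translation factors had 5 of 29, with a median of 0.999. It also held regulators of these factors, among them EIF4ENIF1, whose exon was among the 5 with a region and scored 3.60. EIF4G1, the scaffold of the cap-binding complex, had 701 in the IP against 21.3 in the input at 200 nt and a score of 4.87, and EIF2B1, a subunit of the exchange factor of eIF2, scored 3.88 with 2 separate regions. The list of aminoacyl-tRNA synthetases had 3 of 15, with AARS (now AARS1) at 4.22 and CARS (now CARS1) at 2.90. It also held AIMP2 and EEF1E1, which are not synthetases, and EEF1E1 was counted among the translation factors too. Chaperones had 3 of 24. CALR, the calcium-binding chaperone of the endoplasmic reticulum, had 1164 against 60.4 at 200 nt and a score of 3.95, and HSPA8 scored 2.76. RNA polymerase and general transcription factors had 5 of 34, led by TAF11 at 3.21 and TAF6L at 3.18. Small GTPases had 4 of 15, led by RAB30 at 3.70 and RAC2 at 2.81. The actin and tubulin cytoskeleton list, which also held genes of other proteins such as ARPC2, CORO1A and MYL12B, had 4 of 16. CORO1A, an actin regulator of leukocytes, scored 2.63 with its highest window at the inner edge, and ARPC2, a subunit of the Arp2/3 complex, scored 2.58.

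Length and input moved with these lists. The median exon had 16 windows in the zinc finger list, 15 in the solute carriers and 12 in the helicases, against 8.5 in the cytosolic ribosomal proteins and 10 in the splicing factors. Median input was 3.77, 5.36 and 3.997 in the first 3, against 16.8 and 15.0 in the last pair. Their part in the difference between lists was not tested.

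**Figure D5:**
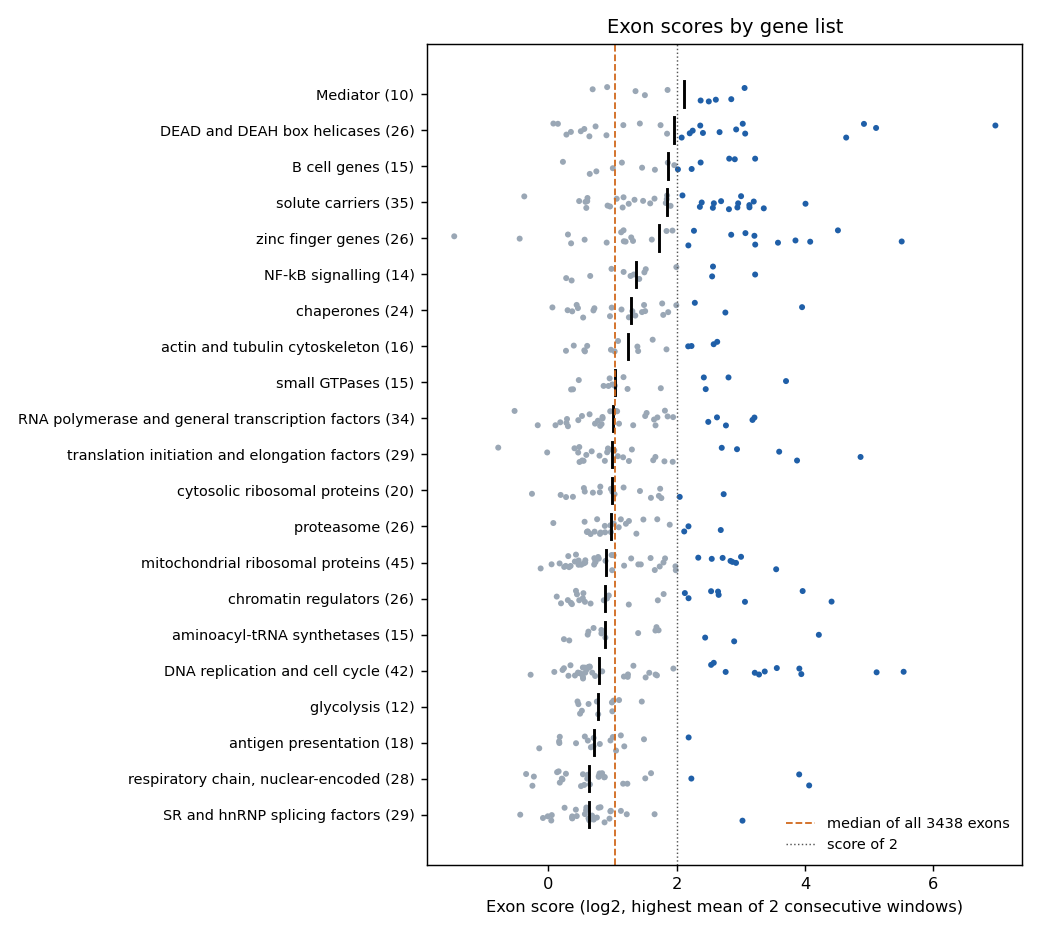
Exon scores on the log2 scale of the members in each gene list with 10 or more members, with the number of members in brackets. Points at 2 or more are blue, the black bar is the list's median and the dashed line is the median of all 3438 exons. Mediator and the helicases have the highest medians, 2.12 and 1.97, and the splicing factors the lowest, 0.63.

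Of the genes of the m6A machinery, 2 had a longer terminal exon in this size range. METTL14, the RNA-binding partner of the methyltransferase, had 10 consecutive enriched windows, with IP coverage of 87.1 and input coverage of 4.41 at 400 nt and an exon score of 3.68. YTHDF2, a cytoplasmic reader that promotes decay of methylated RNA, had 97.2 against 8.55 at 150 nt. Its exon score was 1.21, while another exon scored 3.41. The medians of YTHDF2, with which the score is centred, bear on this value: without centring its exon score was 3.49.

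Just outside the length limits, 2.09% of 191 longer terminal exons of 5 windows and 35.5% of 141 of 21 windows held a region. Just below the input limit, at a gene input of 0.9 to 1, the share was 12.3% of 73 exons, and just above it, at 1 to 1.1, 18.8% of 85. Members only 1 window longer than the terminal exon at the other side held a region in 8.70% of 253.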

How the data were processed

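One table of windows was used. The IP and input coverage is a signal that, per the file headers, the authors give per window, scaled within each library; the scaling is not given in the sources used here, but 100% of non-zero values were multiples of a library-wide step (tolerance 0.01 step). The deposited window score is a log2 value with 1 added to each of its 4 terms, and the deposited medians run over all windows of a gene name. Recomputed scores and medians differed by more than 1e-09 in 0 cases. Mapping with TopHat 1.1.3 to hg19 is named in the submitters' processing notes; the gene annotation is not given in the sources used here. Columns of no sample numbered 0.

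For each of 47352 names the longest of its listings was kept (74210 listings in all; 1450 members had several). Strand and gene class came from RefSeq (GRCh38.p14) by symbol. The tools were pandas 2.3.3 and numpy 2.4.6 under Python 3.11.15, with scipy 1.17.1 for intervals and matplotlib 3.10.9 for plots. The calling of regions was checked on simulated data. No sequence of a window was used here, since the table gives no positions. The members and the gene lists were chosen with earlier results of these data known. Some genes that share only the start of a symbol with a list were removed by name. Others remain, such as EIF2AK4 and EIF4EBP1 in the translation factor list and CDC37 in the cell cycle list.

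Named were the 12 highest exon scores with a run of 3 or more windows, the 4 lowest with a mean input of 10 or more, the 3 highest inputs, the 2 highest of each list of 10 or more members and all m6A genes. Others are marked, or are extremes of a list, and were chosen after their values were seen. Alternatives were other thresholds (1, 3), pseudocounts (0.1, 5), no centring, medians over the kept listing, runs of 4 windows, higher input and non-overlapping windows.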

Additional observations from a re-analysis of the deposited data

How the results depend on the processing

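With 1 library per group nothing could be left out. Few reads support a window where input is low, and the part of depth in the share of exons was not tested. Of the results under the alternatives run, 5 changed sign. Without centring the scores of LSM7 (-1.12), SCAF1 (-0.43) and CCDC12 (-0.37) were 0.17, 1.25 and 0.28. The difference between exon 1 and the highest-numbered exon, 0.33 points, was -0.49 at a threshold of 3, with intervals that include 0 in both cases. The pooled difference from internal exons at 6 to 10 windows, 2.14 points, was -4.77 with lengths weighted, a comparison added after seeing the data. The share of members with a region (22.7%) was 48.7% at a threshold of 1, 9.60% at 3, 28.6% with a pseudocount of 0.1, 15.0% with 5, 19.9% at a gene input of 5 or more and 12.4% with runs of 4 or more windows. The difference from internal exons (-19.6 points) was -15.1 at a threshold of 1, -15.9 at 3, -16.7 with a pseudocount of 5, -23.6 without centring and -15.2 at a gene input of 5 or more. The difference from exons of 21 to 40 windows (-8.51 points) was -10.8 without centring and -4.51 at a threshold of 3. The share holding the gene's highest pair was 55.3% with a pseudocount of 0.1. Enriched windows were 8.32% with every other window only and 11.5% with a window input of 2 or more. At a threshold of 3 the differences were 14.1 points between 16 to 20 and 6 to 10 windows (main 24.8), 4.35 between 200 to 350 nt and the first 2 windows (main 10.8; 13.7 at an input of 2 or more), 8.39 between the third and the lowest of 4 input groups (main 14.0) and 7.94 between 3′ and 5′ exons (main 14.3; 21.2 at a threshold of 1). The last comparison was added after seeing the data. Without centring, 6 of the 12 highest exons were again among the 12 highest. The score of RPL31 was 1.41 with a pseudocount of 5, 1.96 without centring and 1.17 with medians over the kept listing. Below 2 were also PSMA2 (1.13), TRAF2 (1.91) and HLA-DQB1 (1.73) with a pseudocount of 5, and RPL29 (1.12) and PSMA2 (1.62) without centring. The cause was not tested. No paired analysis was possible because each group has 1 library and no result comes from a test.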
